A study of Mus musculus with 24 samples.

Results

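The genes described here are the transcription factor NRF2 (gene Nfe2l2), its inhibitor Keap1 and 8 core targets, namely Hmox1, Nqo1, Gclc, Gclm, Slc7a11, Gsr, Txnrd1 and Srxn1. They were chosen by name as the core of the NRF2 pathway, with earlier results of these data known. All 10 were found among the 37310 genes of the expression tables. The RNA came from stromal vascular fraction (SVF) cells, the non-adipocyte cells released from fat by collagenase, of 6-week-old C57BL/6 mice. WAT cells came from the inguinal white fat pad and BAT cells from the interscapular brown fat pad, and both were driven to become adipocytes with induction medium for 4 days and differentiation medium for another 4 days. Cells received EGCG, the main catechin of green tea, or DMSO as the control, and were collected on day 4 or day 8 of differentiation. That made 8 groups, WAT or BAT, day 4 or day 8, control or EGCG, with 3 libraries each and 24 in all. The labels give neither the dose of EGCG nor when it was added, and they do not say whether the replicates were separate isolations of cells. The p-values below therefore measure only the spread between these libraries, which may be technical.

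NRF2 is the main activator of the antioxidant and detoxifying response. In resting cells KEAP1 holds NRF2 and hands it to a CUL3-RBX1 ubiquitin ligase for destruction. Oxidants and electrophiles modify cysteines of KEAP1, NRF2 then accumulates, pairs with a small MAF protein and binds antioxidant response elements near its target genes, where the repressor BACH1 can compete with it. Because NRF2 is controlled mainly as a protein, RNA levels report on its gene and its targets and not on the protein itself.

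Levels are given as FPKM, the reads on a gene relative to its length and to the depth of the library, so they can be compared between genes. Values are listed in the order of replicates 1, 2 and 3. Replicates 1 and 2 were deposited in 1 table and replicate 3 in another. Because the 2 might have been scaled separately, tests were planned on replicates 1 and 2 (16 libraries), with replicate 3 read for direction only. FPKM times gene length then proved to sum to the same total in every library of both, so their totals were scaled alike. The tests were kept as planned. Depth on genes was 39452696 to 52893848 reads for replicates 1 and 2 and 16392420 to 41675643 reads for replicate 3. In replicate 3 of WAT day 8 EGCG, 61% of reads fell on 5 genes, against 3.64% to 10.5% in the other 23 libraries, and all 10 genes were listed there below both other libraries of that group. Log2 changes were computed after adding 1 to each FPKM, so that they come out too small for genes at low levels, and a gene is called changed at an adjusted p under 0.05 in limma.

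The labels were checked against marker genes. Zic1, a brown fat precursor gene, stood at 3.57 to 11.1 FPKM in the 12 BAT libraries and at 0.163 or less in the 12 WAT libraries. Ucp1, the heat-producing uncoupling protein, reached 4.20 to 6.97 FPKM in the BAT day 8 controls and was listed at 0 in all 3 BAT day 8 EGCG libraries. The brown fat markers did not move together there, as 2 of the 4 checked were called higher with EGCG and 2 lower. Zic1 stood at 4.05, 3.57 and 4.38 FPKM in those controls and at 8.00, 7.78 and 6.65 with EGCG. All 9 adipocyte markers were called lower with EGCG in each of the 4 groups of cells, with a median log2 change of -2.30 in WAT and -2.17 in BAT on day 4, and of -4.52 in WAT and -3.51 in BAT on day 8. The summed level of 11 macrophage markers moved in opposite directions on the 2 days. On day 4 it was 93.3 and 86.8 FPKM in control WAT and 224 and 221 with EGCG, and 218 and 205 in control BAT and 479 and 435 with EGCG. On day 8 it was 155 and 200 in control WAT and 62.9 and 66.7 with EGCG, and 152 and 149 in control BAT and 67.0 and 68.0 with EGCG. Lyz2 made up most of the day 4 sums with EGCG, at 164.4 and 160.5 FPKM in WAT and 355.1 and 313.9 in BAT. Of the 10 macrophage markers tested, 9 were called higher in WAT and 7 in BAT on day 4. On day 8, 10 were called lower in WAT and 9 in BAT. None of the 5 endothelial markers was called lower in any group, and 4 or 5 were called higher in each. Pecam1 was not called in WAT on day 8, at 6.955 and 8.124 FPKM in controls and 6.297 and 6.948 with EGCG. Of all genes tested, 34.4% and 44.7% were called higher in WAT on days 4 and 8 and 27.9% and 46.5% in BAT. The shares called lower were 19.3% and 18.9% in WAT and 20.6% and 26.1% in BAT. Every sample is a mixture of cells, so fewer cells of a type and less RNA per cell cannot be told apart, and the part of these mixtures in the results below was not tested.

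To show the sequences NRF2 is known to recognise, promoters of the 10 genes were looked up in RefSeq (GRCm38.p6), as windows of 250 bases before to 50 bases after a transcription start. The table held 9 windows for 7 of them, Nfe2l2, Keap1, Nqo1, Gclm, Slc7a11, Txnrd1 (3 starts) and Srxn1. Hmox1, Gclc and Gsr had no entry. The core of the antioxidant response element, TGACNNNGC on either strand, was present in the windows of Nfe2l2, Gclm, Txnrd1 and Srxn1. That is 4 of the 7 genes, where 12.4% of all 32851 windows and 14.0% of the 27025 genes with a window held it. A looser core, TGANNNNGC, which contains the first, was found for 6 of the 7 genes (all but Nqo1) against 45.0% of genes, and the full TGACTCAGC in none of the 7 against 0.503% of genes. These are matches of letters and not measured binding sites. The stretches around the matches are given below, 5′ to 3′ on the strand of the gene, with the match in capitals, because these 4 promoters hold the core.
Nfe2l2, chr2:75704865-75704913, minus strand, -250 to -202 from the start: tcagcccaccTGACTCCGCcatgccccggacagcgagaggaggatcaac
Gclm, chr3:122245393-122245461, plus strand, -164 to -96 from the start: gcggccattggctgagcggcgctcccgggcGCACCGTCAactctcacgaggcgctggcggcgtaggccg
Txnrd1, chr10:82859084-82859152, plus strand, -122 to -54 from the start: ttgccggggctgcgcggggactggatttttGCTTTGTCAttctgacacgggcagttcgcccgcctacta
Srxn1, chr2:152105346-152105507, plus strand, -178 to -17 from the start: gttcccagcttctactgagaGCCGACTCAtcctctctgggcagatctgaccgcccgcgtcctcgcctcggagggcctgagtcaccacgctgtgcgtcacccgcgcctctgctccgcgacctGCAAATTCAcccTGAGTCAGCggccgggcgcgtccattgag
In the Srxn1 stretch the capitals mark 3 matches to the looser core. The match of Srxn1 to TGACNNNGC lies at bases 29 to 37 after the start and is outside the stretch shown.

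EGCG raised most of the 10 genes in both kinds of cells and on both days. On day 4, 9 were called higher and 0 lower in WAT, where 53.7% of the 14095 genes tested were called (34.4% higher and 19.3% lower). Another 7 were higher and 2 lower in BAT, where 48.5% were called (27.9% higher and 20.6% lower). On day 8, 8 were higher and 0 lower in WAT, where 63.6% were called (44.7% higher and 18.9% lower), and 7 were higher and 2 lower in BAT, where 72.6% were called (46.5% higher and 26.1% lower). The median log2 change of the 10 genes was 0.97 in WAT and 0.54 in BAT on day 4 and 0.49 in WAT and 0.98 in BAT on day 8, and that of all genes tested was 0.087, 0.032, 0.166 and 0.168 in the same order. Scaling the libraries by median ratios brought the last 2 of these medians to 0.005 and 0.019. That scaling lowered values of the 10 genes too, as Gsr in WAT on day 8 went from 0.12 to -0.06 and Gclm in BAT on day 8 from 0.13 to -0.05. The medians of the 10 genes given here are without it. Hmox1, Nqo1, Gclc, Txnrd1, Srxn1 and Nfe2l2 were called higher in all 4 groups, and on the log2(FPKM + 1) scale Hmox1 or Gclc had the largest change of the 10 in each. As a ratio of means, Slc7a11 had a larger one in BAT on day 8 (4.92 times, against 3.26 for Gclc), from a control level under 1 FPKM.

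**Figure D1:**
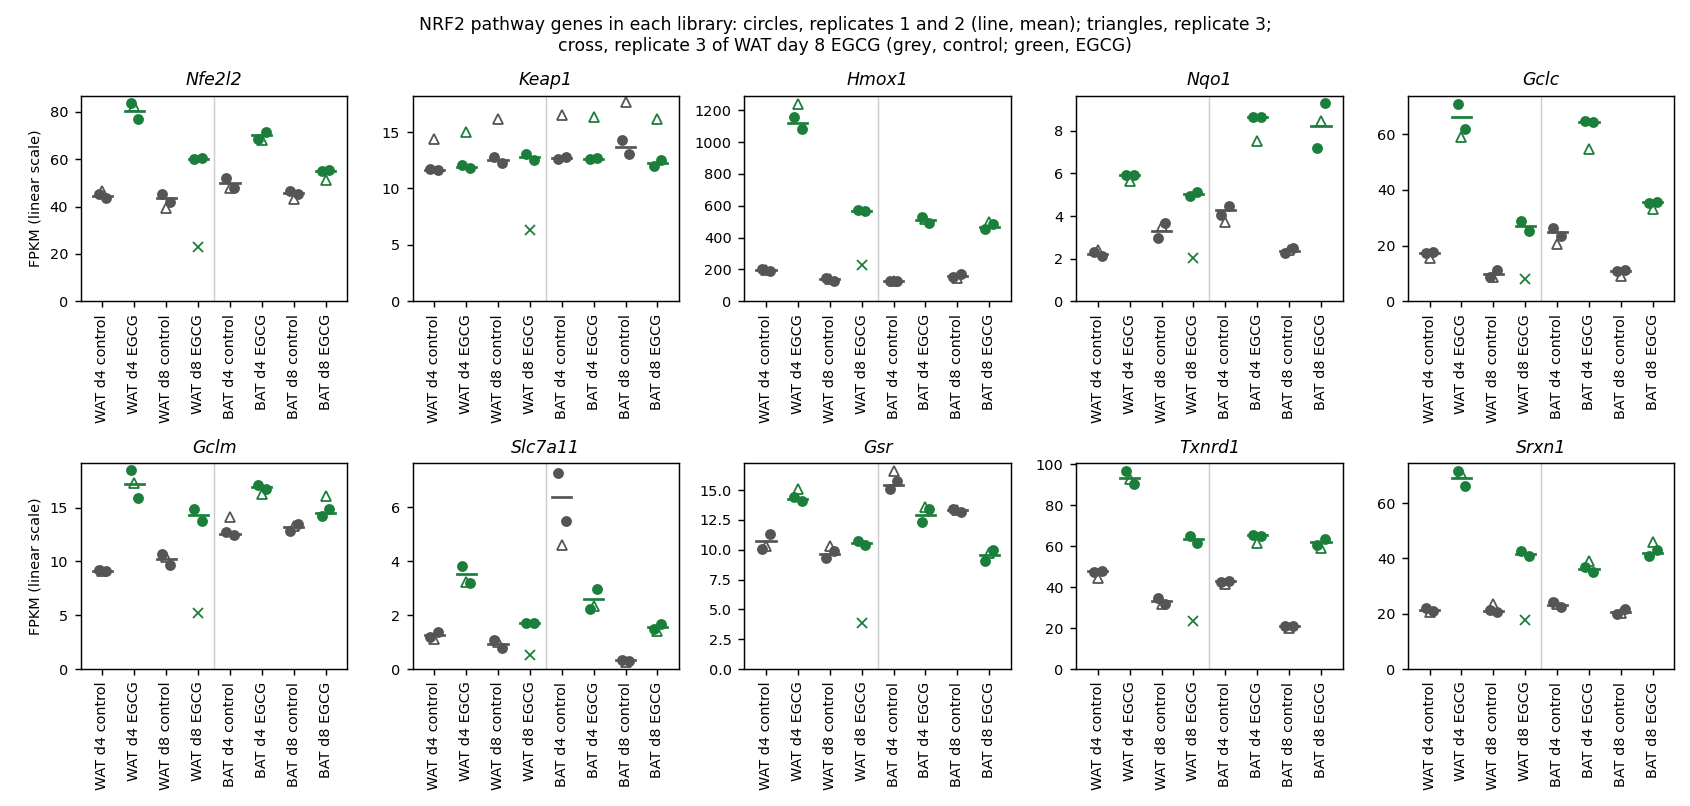
FPKM of each gene (y axis, linear, from 0) in every library of the 8 groups (x axis). Circles are replicates 1 and 2 with their mean as a line, triangles are replicate 3, and the cross is replicate 3 of WAT day 8 EGCG. Hmox1 was highest in WAT day 4 EGCG at 1082 to 1236 FPKM, whereas Keap1 stayed between 11.6 and 14.3 FPKM in the 16 libraries of replicates 1 and 2.

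**Figure D2:**
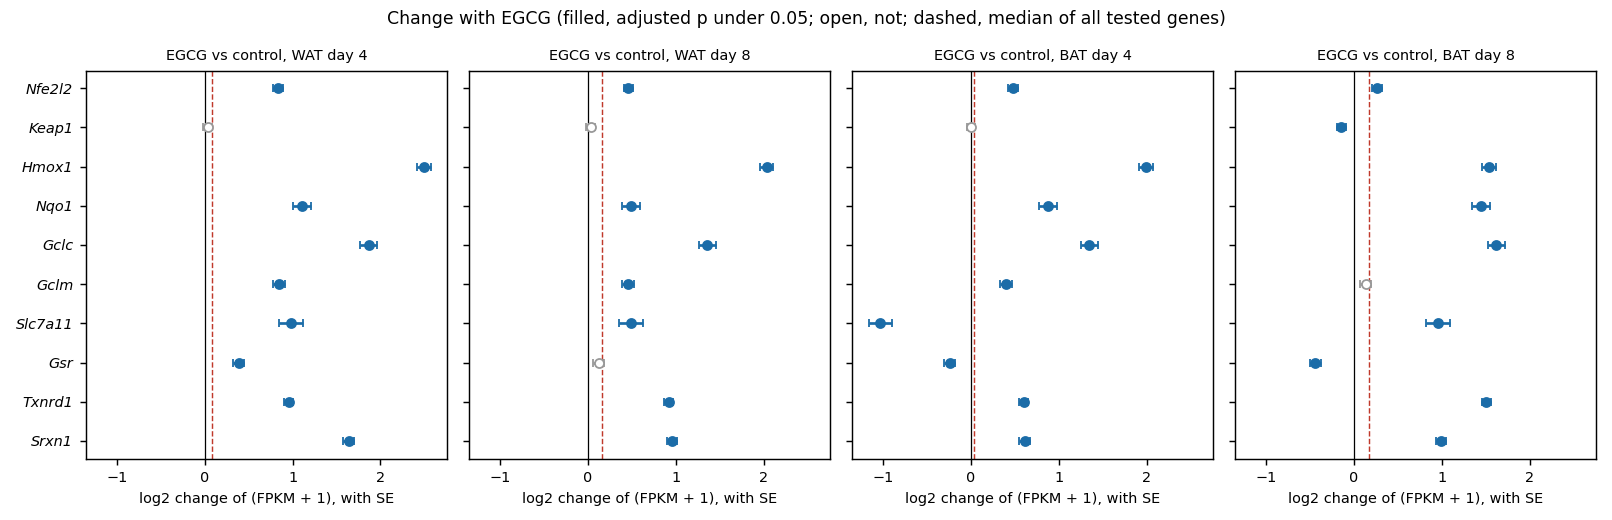
Log2 change of (FPKM + 1) with EGCG (x axis) for the 10 genes in WAT and BAT cells on days 4 and 8, as points with the standard error. Filled points passed an adjusted p of 0.05 and the dashed line is the median of all genes tested. Hmox1 lay between 1.54 and 2.49, and Slc7a11 was at -1.03 in BAT on day 4 and between 0.49 and 0.98 in the other 3 panels. Gsr in WAT on day 8 and Gclm in BAT on day 8, both open, fell below 0 when libraries were scaled by median ratios, as Keap1 did in WAT on both days.

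Gene positions below are those of GENCODE vM1 on the mm9 build. Nfe2l2 (ENSMUSG00000015839.6, chr2:75513570-75542698), which encodes NRF2 itself, rose with EGCG in all 4 groups. In WAT on day 4 it stood at 45.3, 43.8 and 46.5 FPKM in controls and 83.9, 76.8 and 82.4 with EGCG (log2 change 0.83, SE 0.0557, adjusted p = 2.70e-07). In WAT on day 8 it stood at 45.1, 41.8 and 39.4 in controls and 60.0, 60.4 and 23.0 with EGCG (0.46, SE 0.0557, adjusted p = 1.84e-05). Apart from the last of these libraries, the one dominated by 5 genes, every EGCG library lay above every control. BAT controls on day 4 held 52.1, 47.8 and 48.0 FPKM and EGCG cells 68.5, 71.7 and 68.2 (0.48, SE 0.0557, adjusted p = 2.29e-05). On day 8 BAT controls held 46.7, 45.1 and 43.0 and EGCG cells 55.2, 55.3 and 51.4 (0.26, SE 0.0557, adjusted p = 0.00113). The groups did not overlap in BAT either, but the change on day 8 was only 0.093 above the median of all genes, and its call was lost under median-ratio scaling (0.07, adjusted p = 0.243).

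Keap1 (ENSMUSG00000003308.8, chr9:21034174-21043776), the adaptor that marks NRF2 for destruction, hardly varied. Over the 16 libraries of replicates 1 and 2 it ranged from 11.6 to 14.3 FPKM, a coefficient of variation of 5.25% where those of the other 9 genes ran from 18.2% to 83.3%. Its log2 change with EGCG was 0.03 in WAT on day 4 (adjusted p = 0.606), 0.03 in WAT on day 8 (adjusted p = 0.618) and -0.002 in BAT on day 4 (adjusted p = 0.984). In BAT on day 8 it was called lower, at 14.3, 13.1 and 17.7 FPKM in controls and 12, 12.5 and 16.1 with EGCG (-0.14, SE 0.0487, adjusted p = 0.0182). Within replicates 1 and 2 the control and EGCG libraries overlapped in WAT on day 8 and BAT on day 4, and in the other 2 groups they lay apart, with replicate 3 in the same direction. The call in BAT on day 8 was lost without replicate 1 of the controls or of the EGCG group (-0.09 and -0.11), and under median-ratio scaling Keap1 was also called lower in WAT on day 8 (-0.16, adjusted p = 0.0122). Its exons share 510 bases with those of Gm16754, a noncoding gene on the opposite strand, and reads in that overlap cannot be assigned because the strand setting of the counting is not given in the sources used here.

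Hmox1 (ENSMUSG00000005413.6, chr8:77617490-77624495), heme oxygenase 1, which breaks heme down to biliverdin, iron and carbon monoxide, was the most abundant of the 10 genes in every library. In WAT on day 4 its level was 203, 192 and 194 FPKM in controls and 1155, 1082 and 1236 with EGCG, 5.66 times the control mean (log2 change 2.49, SE 0.0784, adjusted p = 1.06e-09). By day 8 in WAT it was 148, 128 and 138 in controls and 573, 564 and 230 with EGCG, 4.11 times (2.04, SE 0.0784, adjusted p = 2.01e-09). The EGCG libraries were far above the controls in both cases, and even the third EGCG library of day 8 exceeded all 3 controls. In BAT on day 4 Hmox1 went from 125, 129 and 130 to 530, 488 and 516 FPKM, 4.00 times (1.99, SE 0.0784, adjusted p = 7.82e-09). In BAT on day 8 it went from 150, 171 and 146 to 451, 483 and 495, 2.91 times (1.54, SE 0.0784, adjusted p = 6.50e-09). No control library reached an EGCG library in BAT. Summed macrophage markers were higher with EGCG on day 4 and lower on day 8, and their part in the Hmox1 values was not tested.

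Nqo1 (ENSMUSG00000003849.8, chr8:109912125-109927106), a quinone reductase used as a standard readout of NRF2, was low in all groups, at 2.15 to 9.29 FPKM over replicates 1 and 2. In WAT it stood at 2.32, 2.15 and 2.40 FPKM in day 4 controls and 5.94, 5.94 and 5.66 with EGCG (1.10, SE 0.103, adjusted p = 4.19e-06). On day 8 the WAT controls were at 2.95, 3.66 and 3.54 and EGCG cells at 4.94, 5.14 and 2.02 (0.49, SE 0.103, adjusted p = 0.00127). The ratio of means was 2.66 on day 4 and 1.52 on day 8, without overlap of replicates 1 and 2. BAT cells on day 4 held 4.07, 4.47 and 3.72 FPKM as controls and 8.65, 8.67 and 7.52 with EGCG (0.88, SE 0.103, adjusted p = 2.55e-05). On day 8 they held 2.27, 2.48 and 2.40 and 7.20, 9.29 and 8.47 (1.45, SE 0.103, adjusted p = 1.13e-07), 3.47 times. In BAT too no library of one group reached the other.

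Gclc (ENSMUSG00000032350.8, chr9:77602342-77642292) and Gclm (ENSMUSG00000028124.7, chr3:121948475-121972902) encode the catalytic and the modifier subunit of glutamate-cysteine ligase, the rate-limiting enzyme of glutathione synthesis, and Gclc had the larger change of the pair in all 4 groups. Gclc in WAT on day 4 was 17.1, 17.6 and 15.6 FPKM in controls and 70.7, 61.8 and 58.9 with EGCG (1.87, SE 0.0961, adjusted p = 3.43e-08), and Gclm was 9.17, 9.07 and 9.07 and 18.4, 15.9 and 17.3 (0.84, SE 0.0674, adjusted p = 1.19e-06). On day 8 in WAT, Gclc was 8.82, 11.1 and 8.60 and 28.8, 25.2 and 8.02 (1.36, SE 0.0961, adjusted p = 2.33e-07), and Gclm 10.7, 9.71 and 10.4 and 14.8, 13.8 and 5.25 (0.45, SE 0.0674, adjusted p = 1.01e-04). Replicates 1 and 2 separated the groups for both subunits. In BAT on day 4, Gclc was 26.2, 23.4 and 20.6 and 64.8, 64.2 and 54.5 (1.35, SE 0.0961, adjusted p = 4.52e-07), and Gclm 12.7, 12.5 and 14.1 and 17.1, 16.7 and 16.3 (0.40, SE 0.0674, adjusted p = 4.40e-04). On day 8 in BAT, Gclc was 10.7, 11.1 and 9.21 and 35.3, 35.6 and 33 (1.62, SE 0.0961, adjusted p = 2.38e-08), whereas Gclm was 12.9, 13.5 and 13.2 and 14.2, 14.9 and 16.1 and was not called (0.13, SE 0.0674, adjusted p = 0.103), a value that turned to -0.05 under median-ratio scaling. Exons of Gclm share 296 bases with Gm17494, a noncoding gene on the opposite strand.

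As both values are per length, the ratio of Gclc to Gclm could be followed within each library, where it does not depend on how libraries were scaled. On day 4 it was 1.87, 1.94 and 1.72 in control WAT and 3.83, 3.88 and 3.41 with EGCG. BAT gave 2.06, 1.87 and 1.45 in controls and 3.80, 3.83 and 3.36 with EGCG. The ratio was thus higher in each EGCG library than in any control of that day. On day 8 it was 0.828, 1.14 and 0.829 in control WAT and 1.94, 1.83 and 1.53 with EGCG, and 0.833, 0.820 and 0.695 in control BAT and 2.49, 2.40 and 2.06 with EGCG. Again no control reached an EGCG library, and the third WAT EGCG library, low in both genes, lay with its group. The ratio fell from day 4 to day 8 in every group without overlap of libraries.

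Slc7a11 (ENSMUSG00000027737.5, chr3:50168858-50247535), the cystine importer xCT that supplies cysteine for glutathione, rose with EGCG in 3 groups and fell in BAT on day 4. In WAT it stood at 1.19, 1.36 and 1.11 FPKM in day 4 controls and 3.83, 3.19 and 3.22 with EGCG, 2.75 times (0.98, SE 0.136, adjusted p = 8.95e-05). On day 8 the WAT values were 1.07, 0.767 and 1.01 and 1.69, 1.69 and 0.515, 1.84 times over replicates 1 and 2 (0.49, SE 0.136, adjusted p = 0.00723), a call lost without replicate 2 of the controls (0.38, adjusted p = 0.0625). In BAT on day 4 the order was the opposite, with 7.27, 5.48 and 4.60 FPKM in controls and 2.22, 2.98 and 2.34 with EGCG (-1.03, SE 0.136, adjusted p = 6.41e-05). All 3 BAT controls of day 4 were above all other libraries of the series. By day 8 BAT controls had only 0.319, 0.316 and 0.252 FPKM, the lowest values of the series, and EGCG cells had 1.47, 1.66 and 1.39, 4.92 times (0.96, SE 0.136, adjusted p = 4.55e-05). The EGCG effect in BAT was lower than in WAT by 2.02 on the log2 scale on day 4 (SE 0.192, adjusted p = 2.41e-05), and in BAT it was higher on day 8 than on day 4 by 1.99 (SE 0.192, adjusted p = 6.01e-06).

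Gsr (ENSMUSG00000031584.9, chr8:34762995-34808635), glutathione reductase, which returns oxidised glutathione to its reduced form, rose with EGCG in WAT on day 4 and fell in BAT on both days. WAT cells on day 4 had 10.1, 11.3 and 10.3 FPKM as controls and 14.4, 14.1 and 15.1 with EGCG (0.39, SE 0.0638, adjusted p = 3.42e-04). On day 8 the WAT values were 9.35, 9.93 and 10.3 and 10.8, 10.4 and 3.86 and the difference was not called (0.12, SE 0.0638, adjusted p = 0.11). Median-ratio scaling turned that value to -0.06. In BAT, Gsr fell from 15.1, 15.7 and 16.6 to 12.3, 13.4 and 13.6 FPKM on day 4 (-0.24, SE 0.0638, adjusted p = 0.00786) and from 13.4, 13.1 and 13.4 to 9.10, 9.96 and 9.71 on day 8 (-0.44, SE 0.0638, adjusted p = 5.31e-05). BAT libraries did not overlap on either day, but the call on day 4 was lost without replicate 2 of the controls (-0.21, adjusted p = 0.0564) or replicate 1 of the EGCG group (-0.19, adjusted p = 0.0791). The EGCG effect was lower in BAT than in WAT by 0.63 on day 4 (adjusted p = 4.30e-04) and by 0.57 on day 8 (adjusted p = 4.97e-04).

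Txnrd1 (ENSMUSG00000020250.8, chr10:82296696-82360469) and Srxn1 (ENSMUSG00000032802.7, chr2:151931252-151937112) belong to the thioredoxin arm of the response, as the reductase of thioredoxin and the enzyme that repairs overoxidised peroxiredoxins. Txnrd1 in WAT was 47.6, 48.0 and 44.6 FPKM in day 4 controls and 96.7, 90.5 and 92.9 with EGCG (0.95, SE 0.0490, adjusted p = 3.42e-08), and on day 8 34.5, 31.6 and 31.6 and 65.3, 61.6 and 23.4 (0.92, SE 0.0490, adjusted p = 2.53e-08). BAT values were 42.5, 43.2 and 41.7 and 65.7, 65.0 and 61.5 on day 4 (0.60, SE 0.0490, adjusted p = 1.35e-06), and 21.2, 21.3 and 20.1 and 60.8, 63.5 and 59.4 on day 8 (1.51, SE 0.0490, adjusted p = 1.71e-10). Txnrd1 was thus between 59.4 and 65.7 FPKM in EGCG cells of BAT on both days, while its BAT control level was lower on day 8. Srxn1 in WAT was 22.0, 20.9 and 20.6 and 71.7, 66.3 and 70.8 on day 4 (1.64, SE 0.0603, adjusted p = 2.78e-09), and 21.5, 20.5 and 23.4 and 42.7, 40.9 and 17.7 on day 8 (0.96, SE 0.0603, adjusted p = 9.18e-08). In BAT it was 24.2, 22.4 and 23.5 and 37.0, 35.2 and 39.1 on day 4 (0.61, SE 0.0603, adjusted p = 6.09e-06), and 19.8, 21.6 and 20.2 and 40.9, 43.2 and 45.9 on day 8 (0.99, SE 0.0603, adjusted p = 2.87e-08). Controls of Srxn1 kept to 19.8 to 24.2 FPKM in all 4 groups, and no control reached an EGCG library of its group for either gene once replicate 3 of WAT day 8 EGCG was set aside.

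Since the 2 tables were deposited apart, separation of the groups was read within each. It meant replicates 1 and 2 that did not overlap and a replicate 3 with the same direction. The direction of replicate 3 was not asked in WAT on day 8. By this reading 10 genes were apart with EGCG higher and 0 with EGCG lower in WAT on day 4, where 42.8% and 26.1% of all genes tested were. On day 8 in WAT it was 9 and 0, against 54.3% and 25.1% of all genes. BAT gave 7 and 2 on day 4, against 38.7% and 28.2%, and 8 and 2 on day 8, against 50.6% and 28.6%. Keap1 was the gene not apart in WAT on day 8 and in BAT on day 4. In WAT on day 4 Keap1 was apart narrowly, at 11.68 and 11.59 FPKM in controls and 12.05 and 11.79 with EGCG. Its log2 change in replicate 3 there was 0.054 as deposited and -0.053 after median-ratio scaling. Replicate 3 had the direction of the call for 9 of 9 called genes in WAT on day 4 and in BAT on both days. In WAT on day 8 it had that direction for 1 of 8 as deposited and for 8 of 8 after median-ratio scaling of its table, where the library's factor was 0.458 against 1.01 to 1.23 for the other 7.

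Partners and regulators of NRF2 were mostly higher with EGCG where they were called. Of 10 such genes, 6 were called higher and 1 lower in WAT on day 4, and 8 and 0 on day 8. In BAT it was 5 and 1 on day 4, and 9 and 1 on day 8. Of all genes tested, 34.4%, 44.7%, 27.9% and 46.5% were called higher in that order, and 19.3%, 18.9%, 20.6% and 26.1% lower. Their median log2 changes were 0.18, 0.63, 0.17 and 0.65 in that order, against 0.087, 0.166, 0.032 and 0.168 for all genes. Under median-ratio scaling these counts were 4 and 2, 6 and 0, 5 and 2, and 6 and 1. Of the 14095 genes tested, 3343, 4087, 3443 and 5100 were then called higher and 4131, 3888, 3272 and 4741 lower. Maff and Mafk, small MAF partners of NRF2, were higher in all 4 groups. Maff changed by 1.18 and 1.17 in WAT and by 2.29 and 0.64 in BAT on days 4 and 8, and Mafk by 0.81, 0.76, 1.18 and 0.65. Mafg, the third small MAF, was higher by 0.20, 0.23 and 0.32 in WAT on both days and BAT on day 8 and was not called in BAT on day 4 (-0.15, adjusted p = 0.0906). Its 3 calls were lost under median-ratio scaling, and in BAT on day 4 it was then called lower (-0.19). Mafg holds an annotated pseudogene within it, so reads there are uncertain.

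Bach1, the repressor that competes with NRF2, was called higher in all 4 groups, by 0.45 and 0.69 in WAT and by 0.37 and 0.80 in BAT on days 4 and 8. Quantile normalization took its call away in BAT on day 4 (0.32, adjusted p = 0.0525). Sqstm1, or p62, which binds KEAP1 and draws it into autophagy, rose by 0.38, 0.63, 0.30 and 0.85 in the same order. Nfe2l1, the related factor NRF1, fell by 0.15 in WAT on day 4 and by 0.21 and 0.52 in BAT on days 4 and 8, and stood at 0.09 in WAT on day 8 (adjusted p = 0.118). The first of these calls was lost under quantile normalization (-0.11, adjusted p = 0.0773).

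The wider set of reported NRF2 targets split into genes that rose and genes that fell. Of 29 genes, 28 passed the filter on low values. In WAT, 15 were higher and 3 lower on day 4, where 34.4% and 19.3% of all genes tested were, and 13 higher and 11 lower on day 8, where 44.7% and 18.9% were. In BAT, 11 were higher and 10 lower on day 4, where 27.9% and 20.6% of all genes were, and 13 higher and 14 lower on day 8, where 46.5% and 26.1% were. Their median log2 change lay above that of all genes on day 4 (0.34 against 0.087 in WAT and 0.12 against 0.032 in BAT) and below it on day 8 (-0.06 against 0.166 in WAT and -0.08 against 0.168 in BAT). On day 8 in BAT median-ratio scaling left 8 higher and 14 lower, where 5100 and 4741 of the 14095 genes tested were.

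Ephx1, microsomal epoxide hydrolase, rose by 2.65 and 1.66 in WAT and by 2.27 and 1.28 in BAT on days 4 and 8 (adjusted p from 1.30e-09 to 8.90e-08). Ugdh, which makes UDP-glucuronic acid for glucuronidation, rose by 1.90, 1.20, 0.81 and 1.25, and Ftl1, the ferritin light chain that stores iron, by 0.84, 1.04, 0.90 and 1.32. All 3 kept their direction and call under both scalings. On the other side stood Me1, the malic enzyme that makes NADPH for fatty acid synthesis, at -1.41 and -4.08 in WAT and -1.67 and -3.36 in BAT. Cat, catalase, changed by -0.97, -1.22, -1.23 and -1.68. Tkt, transketolase of the pentose phosphate pathway, was not called in WAT on day 4 (adjusted p = 0.968) and fell by 1.64 in WAT on day 8 and by 0.36 and 2.15 in BAT on days 4 and 8. The adipocyte markers given above fell in the same comparisons, and their part in the fall of these enzymes was not tested.

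**Figure D3:**
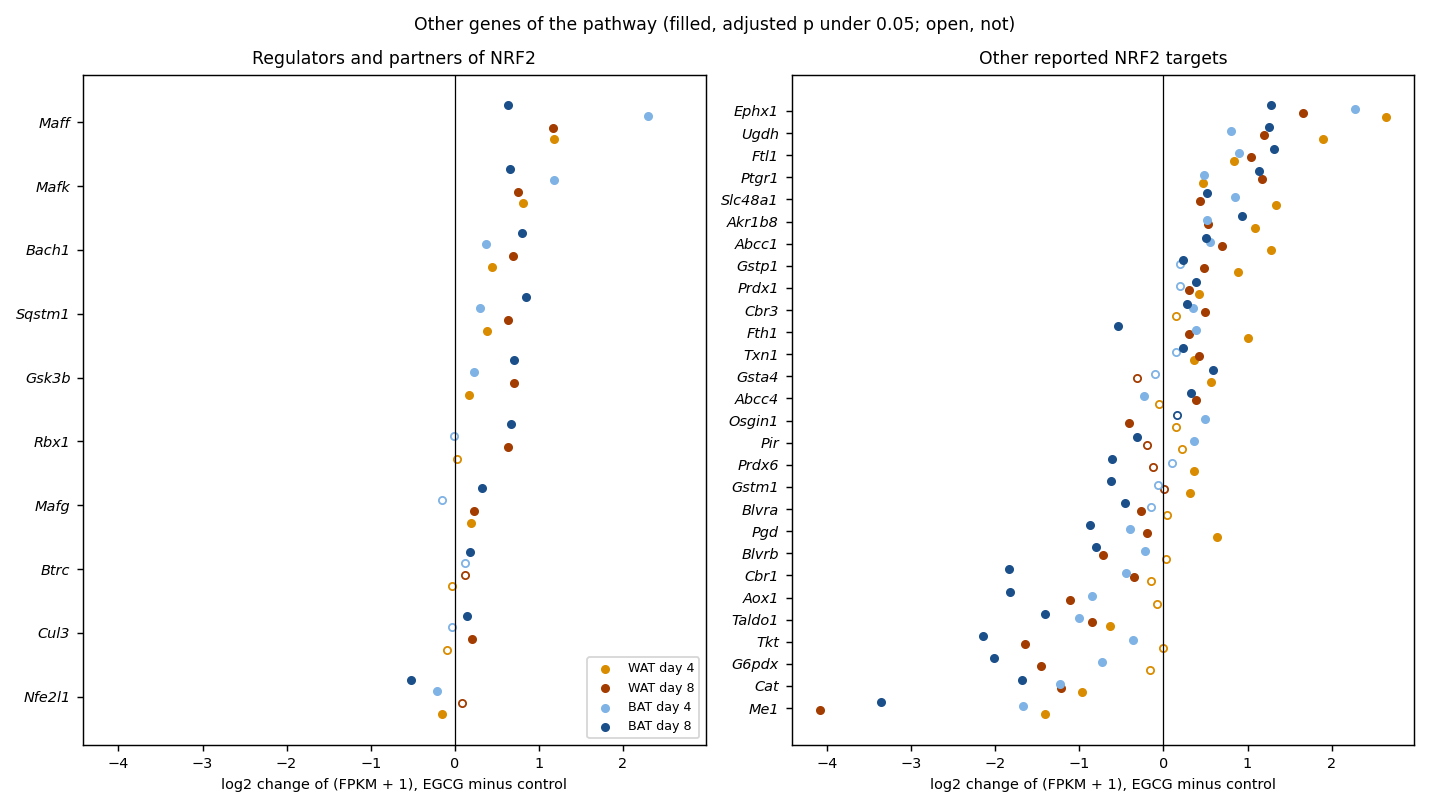
Log2 change of (FPKM + 1) with EGCG (x axis) of 10 regulators and partners of NRF2 (left) and of 28 other reported targets (right), 1 point per group of cells, filled where the adjusted p was under 0.05. Maff, Mafk, Bach1 and Sqstm1 lay above 0 in all 4 groups, and the right panel ran from Ephx1, up to 2.65, down to Me1, at -4.08 in WAT on day 8. Mafg and Nfe2l1 changed sign under median-ratio scaling in no group where they were called.

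From day 4 to day 8, more of the genes were called lower than higher in EGCG cells of both sources, and in controls that balance depended on the scaling. Between these days the cells also went from induction to differentiation medium. Time and medium cannot be told apart in any comparison of the 2 days. In WAT controls 1 was higher and 3 lower, where 61% of genes tested were called (27.7% higher and 33.2% lower), and in WAT EGCG cells 0 were higher and 8 lower, where 59.5% were called (31.8% higher and 27.7% lower). In BAT controls 1 was higher and 6 lower, where 69.2% were called (28.7% higher and 40.4% lower), and in BAT EGCG cells 1 was higher and 5 lower, where 58% were called (29.7% higher and 28.2% lower). Under median-ratio scaling WAT controls had 3 higher and 3 lower and BAT controls 3 and 4, while the counts in EGCG cells were as before. Gclc fell in all 4, by 0.76 and 1.26 in control and EGCG cells of WAT and by 1.11 and 0.84 in BAT (adjusted p from 5.44e-07 to 3.14e-05). Slc7a11 in BAT controls fell by 2.47 (SE 0.136, adjusted p = 1.80e-08), the largest change of the 10 genes with time, and the day 4 mean was 20.1 times that of day 8. Txnrd1 fell by 0.98 in BAT controls (adjusted p = 8.88e-09) and was not called in BAT EGCG cells (-0.07, adjusted p = 0.237).

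Hmox1 changed with time in opposite directions in the controls, falling by 0.52 in WAT (adjusted p = 1.31e-04) and rising by 0.33 in BAT (adjusted p = 0.00264). Nqo1 did the reverse, rising by 0.41 in WAT controls (adjusted p = 0.00467) and falling by 0.64 in BAT controls (adjusted p = 1.54e-04). Nfe2l2 fell in EGCG cells of WAT by 0.41 and of BAT by 0.34, and was not called in controls (adjusted p = 0.591 and 0.0791). Keap1 was called in none of the 4. Under quantile normalization 7 genes (3 higher and 4 lower) were called in WAT controls instead of 4, and without replicate 2 of BAT day 4 EGCG 3 were called in BAT EGCG cells instead of 6. Several calls were lost when 1 library was left out. That of Nqo1 in WAT controls was lost without replicate 2 of day 8 (0.29, adjusted p = 0.0501), and that of Gclm in WAT EGCG cells without replicate 1 of day 4 (-0.15, adjusted p = 0.0943) or replicate 2 of day 8 (-0.20, adjusted p = 0.0715). In BAT controls, Gsr and Srxn1 lost their calls under median-ratio scaling (-0.058 and -0.02, adjusted p = 0.444 and 0.78) and quantile normalization (-0.086 and -0.058, adjusted p = 0.252 and 0.375). Fitting both tables together also removed these 2 calls. Gsr further lost its call without replicate 2 of either day (-0.17 and -0.19) and Srxn1 without replicate 1 of either day (-0.11 in both). In BAT EGCG cells, Slc7a11 lost it without replicate 2 of day 4 (-0.33, adjusted p = 0.1) or replicate 1 of day 8 (-0.43, adjusted p = 0.061), Srxn1 without replicate 2 of either day (0.18 in both, adjusted p = 0.0732 and 0.0781), and Gclm without either replicate of day 4 (-0.19 and -0.22, adjusted p = 0.0881 and 0.0566) or replicate 1 of day 8 (-0.18, adjusted p = 0.116).

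**Figure D4:**
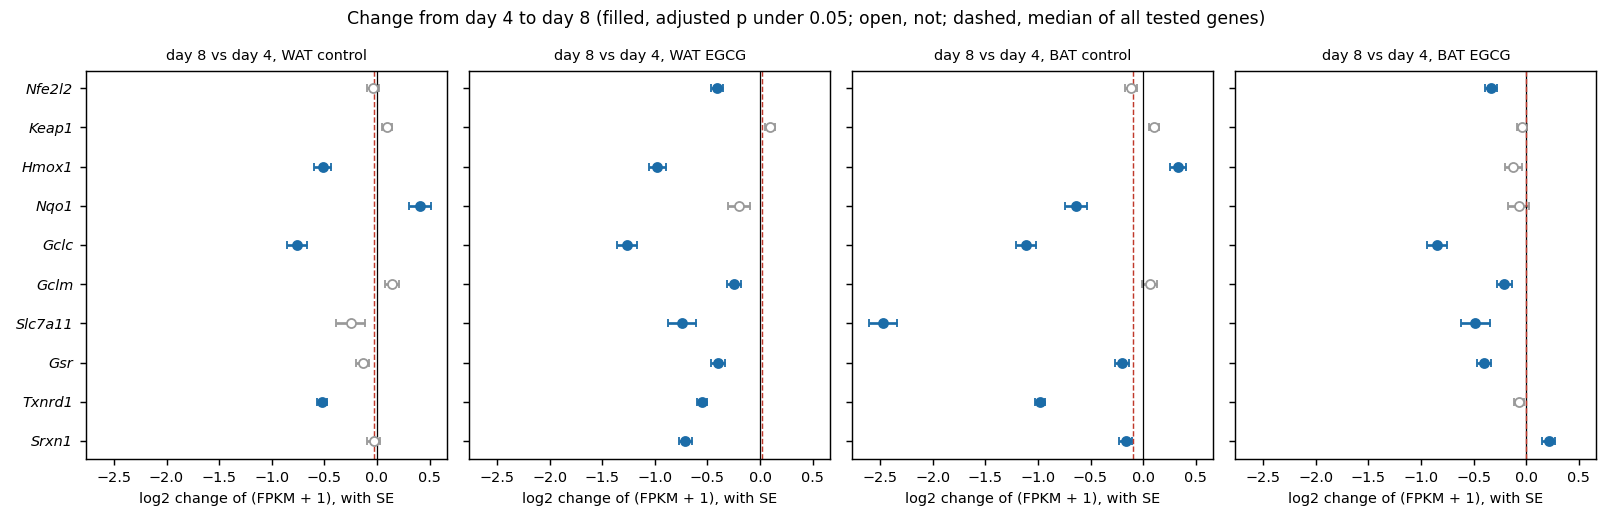
Log2 change of (FPKM + 1) from day 4 to day 8 (x axis) of the 10 genes in control and EGCG cells of WAT and BAT, as points with the standard error. Filled points passed an adjusted p of 0.05 and the dashed line is the median of all genes tested. Slc7a11 in BAT controls stood at -2.47, and Gclc was below 0 in all 4 panels.

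Between the 2 cell sources, more of these genes were called higher than lower in BAT controls of day 4, and so were more of all genes tested. On day 4, 6 were higher and 2 lower in BAT controls, where 55.8% of genes tested were called (41.4% higher and 14.4% lower), and 1 was higher and 4 lower in BAT EGCG cells, where 48.7% were called (32.9% higher and 15.8% lower). With libraries scaled by median ratios, the day 4 controls had 5 of these genes higher and 2 lower, and 3481 and 3272 of all genes. On day 8, as deposited, 3 were higher and 3 lower in controls, where 53.6% were called (31.6% higher and 22% lower). In EGCG cells of day 8, 2 were higher and 1 lower, where 38.4% were called (24.4% higher and 14% lower). In day 4 controls the difference was 1.69 for Slc7a11 (adjusted p = 2.18e-06), 0.70 for Nqo1 (adjusted p = 1.60e-04), 0.49 for Gsr, 0.48 for Gclc and 0.42 for Gclm. Nfe2l2 was higher by 0.16 (adjusted p = 0.0285), which turned to -0.002 under median-ratio scaling and lost its call without replicate 1 or 2 of WAT (0.19 and 0.14, adjusted p = 0.0513 and 0.14) or replicate 1 of BAT (0.10, adjusted p = 0.224). Hmox1 was lower in BAT by 0.63 (adjusted p = 4.85e-05) and Txnrd1 by 0.15 (adjusted p = 0.0186), the latter lost without any 1 of the 4 libraries compared.

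With EGCG on day 4, Hmox1, Txnrd1 and Nqo1 kept the order of the cell sources that they had in controls, and Nfe2l2 turned. Srxn1 was called only with EGCG, and Slc7a11, Gsr, Gclc and Gclm were no longer called. Hmox1 was lower in BAT than in WAT by 1.13 (adjusted p = 6.12e-07), Srxn1 by 0.92 (adjusted p = 4.33e-07), Txnrd1 by 0.51 (adjusted p = 6.86e-06) and Nfe2l2 by 0.19 (adjusted p = 0.0134), and Nqo1 alone was called higher, by 0.48 (adjusted p = 0.00256). The call of Nfe2l2 was lost without replicate 1 of WAT day 4 EGCG (-0.13, adjusted p = 0.121) or of BAT day 4 EGCG (-0.16, adjusted p = 0.0958). On day 8 with EGCG, Nqo1 and Gclc were higher in BAT by 0.61 (adjusted p = 7.76e-04) and 0.39 (adjusted p = 0.00825) and Hmox1 was lower by 0.28 (adjusted p = 0.0142). That count of 3 was 1 without replicate 2 of WAT day 8 EGCG, when Hmox1 and Gclc lost their calls (Hmox1 also without replicate 1 of either source, adjusted p = 0.0694 and 0.103), and 5 under quantile normalization. In day 8 controls Txnrd1 was lower in BAT by 0.61 (adjusted p = 1.06e-06), Slc7a11 by 0.54 (lost without replicate 1 of WAT, -0.42, adjusted p = 0.0502) and Nqo1 by 0.35 (lost without replicate 2 of WAT, -0.23, adjusted p = 0.119, or replicate 1 of BAT, -0.30, adjusted p = 0.0814), whereas Gsr and Gclm were higher by 0.43 and 0.34. Hmox1 was higher by 0.21 (adjusted p = 0.0367), a call lost under median-ratio scaling (0.17, adjusted p = 0.0897) and without replicate 2 of WAT (0.11, adjusted p = 0.28) or of BAT (0.12, adjusted p = 0.278). Each cell source is 1 fat depot, so the depot and everything else that differed between the 2 preparations cannot be told apart.

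The size of the EGCG effect itself was compared between cell sources and days. On day 4 it was smaller in BAT than in WAT for 8 of the 10 genes and larger for 0, where 28.1% of genes tested were called (12% larger and 16.1% smaller in BAT). On day 8 it was larger in BAT for 2 (Nqo1 and Txnrd1) and smaller for 3 (Hmox1, Gclm and Gsr), where 39.2% were called (19.4% and 19.7%). Within WAT it was smaller on day 8 than on day 4 for 7 and larger for 0, where 49.4% were called (29.7% larger and 19.7% smaller on day 8), and within BAT it was larger for 4 (Nqo1, Slc7a11, Txnrd1 and Srxn1) and smaller for 3 (Nfe2l2, Hmox1 and Gclm), where 55.4% were called (34.7% and 20.6%). Larger and smaller refer here to the signed log2 effect. On the day 4 scale Srxn1 differed by -1.03 between BAT and WAT (SE 0.0853, adjusted p = 9.46e-06) and Hmox1 by -0.50 (SE 0.111, adjusted p = 0.00628). The count of 5 for BAT against WAT on day 8 was 9 when both tables were fitted together with the table as a block. Slc7a11 was not among the 5 (0.47, adjusted p = 0.0765). When 0.1 instead of 1 was added to each FPKM, or with voom on recovered reads, 3 genes were called larger in BAT and 3 smaller.

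To see which genes followed these across the 16 libraries of replicates 1 and 2, Pearson correlations of log2(FPKM + 1) were ranked over the 8703 other tested genes with a mean of at least 5 FPKM (8704 for Slc7a11). The libraries fall into 8 groups of 2, so these values describe shared group patterns. For Nfe2l2 the nearest were Arl13b (0.967), Abcc1 (0.966) and Tmx4 (0.951). For Hmox1 they were Srxn1 (0.966), Slc2a1 (0.965) and Ezr (0.962), and by Spearman correlation Srxn1 ranked only 191. Nqo1 lay nearest to Upf2 (0.982), Pdrg1 (0.962) and Aen (0.945), Slc7a11 to Hnrnpu (0.973), Ddx47 (0.960) and Tardbp (0.945), and Srxn1 to Jmjd6 (0.978), Hmox1 (0.966) and Esd (0.965). Among the 10 genes, Hmox1 and Srxn1 had the highest correlation (0.97), Nfe2l2 reached 0.92 with Gclc and 0.91 with Hmox1 and Srxn1, and Keap1 ranged from -0.56 with Txnrd1 to 0.23 with Gsr.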

How the data were processed

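RNA of mouse SVF cells was sequenced in 24 libraries of 8 groups, taken from the labels, and none was left unassigned. FPKM values were deposited per gene in 2 tables, made by the authors, whose submitters' processing notes name FastQC 0.11.9, HISAT2 2.2.0, HTSeq 0.11 and the mm9 build without giving their roles. The FPKM multiplied by gene length sum to the same total in every library, so a few abundant genes lower all others. All 37310 identifiers matched GENCODE vM1, and the length used was that of the longest transcript. Whole reads were recovered for 100% of values (tolerance 0.01), which gave the depths. The study's paper concerns other libraries and was read for style only.

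Values were tested as log2(FPKM + 1) in limma 3.58.1 (R 4.3.3) on replicates 1 and 2, with a mean per group, 1 spread shared by all 8 groups, trended empirical Bayes variance and 8 residual degrees of freedom. Genes with at least 1 FPKM in 2 of 16 libraries were tested (14095, all 10 members included), two-sided, with Benjamini-Hochberg adjustment within each of 16 contrasts. The 10 members and all lists were chosen with earlier results of these data known. All members were named, with Bach1, the small MAF genes and Sqstm1, and from each other list the 2 highest and 2 lowest called genes per EGCG contrast. Replicates differed by more than sampling noise (median squared difference 1.62 to 3.90 against 0.455), so none was counted once. Alternatives were a pseudocount of 0.1, no filter, median-ratio scaling, quantile normalization, a replicate block, voom on recovered reads, both tables together and leaving out each library. The code was tested on simulated data.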

Additional observations from a re-analysis of the deposited data

Results flagged for a closer look

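The EGCG effect differed between cell sources or days by a test of the difference itself, an interaction term in limma, for 27 values of 9 genes, given here on the log2 scale and with the adjusted p below 0.05 in each case. Effects that were lower in BAT than in WAT on day 4 were those of Slc7a11 (-2.02, higher in WAT EGCG cells and lower in BAT EGCG cells), Srxn1 (-1.03), Gsr (-0.63), Gclc (-0.52), Hmox1 (-0.50), Gclm (-0.44), Txnrd1 (-0.36) and Nfe2l2 (-0.35). On day 8 the BAT effect was lower for Gsr (-0.57), Hmox1 (-0.50) and Gclm (-0.32) and higher for Nqo1 (0.95) and Txnrd1 (0.59). Within WAT the effect was lower on day 8 than on day 4 for Srxn1 (-0.68), Nqo1 (-0.61), Gclc (-0.51), Hmox1 (-0.46), Gclm (-0.39), Nfe2l2 (-0.37) and Gsr (-0.26). Within BAT it was lower on day 8 for Hmox1 (-0.45), Gclm (-0.27) and Nfe2l2 (-0.22) and higher for Slc7a11 (1.99), Txnrd1 (0.91), Nqo1 (0.57) and Srxn1 (0.38). Calls of Gclc and Gclm between cell sources (days 4 and 8), of Gsr within WAT and of Nfe2l2 and Gclm within BAT were lost in at least 1 fit without a single library, and that of Hmox1 within BAT under quantile normalization. Macrophage and adipocyte markers changed with EGCG to different extents on the 2 days, and their part in these differences was not tested. Groups of 3 libraries were not tested for outlying samples.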

How the results depend on the processing

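Over 24 alternative fits, 114 gene values gave 2736 comparisons, of which 2633 kept direction and call, 81 lost the call and 22 turned direction. No member called for a comparison was called in the opposite direction in any of them. Of the turned values without a call, Keap1 was then called lower with EGCG in WAT on day 8 under both scalings and with both tables and on day 4 with both tables, and Gsr in WAT on day 8 with both tables. Totals called over all genes stayed within 1.5 times in all 16 comparisons, but counts in 1 direction did not. With EGCG in WAT, lower calls went from 2714 to 4131 under median-ratio scaling and 4581 with both tables on day 4 and from 2660 to 4431 with both tables on day 8, where higher calls went from 6302 to 4087 under median-ratio scaling. For BAT against WAT, day 4 controls went from 5842 higher and 2025 lower to 3481 and 3272 when scaled by median ratios, 3641 and 3052 after quantile normalization and 3673 lower with both tables, day 4 EGCG cells from 2221 to 3380 lower with both tables, and day 8 EGCG cells from 3441 to 2270 higher without replicate 2 of WAT day 8 EGCG. For the EGCG effect in BAT minus WAT on day 4, lower calls went from 2270 to 1454 under median-ratio scaling and higher ones from 1689 to 2879 with both tables. Counts of called members that moved were WAT controls over time (4, and 7 under quantile normalization), BAT against WAT in day 8 EGCG cells (3, then 5 under quantile normalization, 6 with both tables and 5 with both tables but without replicate 3 of WAT day 8 EGCG) and the EGCG effect in BAT minus WAT on day 8 (5, and 9 with both tables, also without that library). Leaving out single libraries gave 3 to 6 members over time in BAT EGCG cells and 1 to 3 between cell sources in day 8 EGCG cells, the lone library left in a group being assumed to vary like the others. The cause of these moves was not tested. Calls for regulators in WAT on day 4 were 4 instead of 7 without replicate 1 of the controls or of the EGCG group, an alternative added after seeing the data.

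Turned values, in the order median-ratio scaling, quantile normalization, both tables and both tables without that library, were -0.097, -0.044, -0.084 and -0.084 for Keap1 with EGCG in WAT on day 4, -0.16, -0.13, -0.18 and -0.18 on day 8, -0.06, -0.024, -0.13 and -0.091 for Gsr in WAT on day 8, and -0.05, -0.008, -0.02 and -0.02 for Gclm in BAT on day 8. Nfe2l2 in BAT against WAT day 4 controls turned to -0.002, -0.033 and -0.033 in all but quantile normalization (0.07). Without 1 library Keap1 gave 0 (replicate 1 of EGCG left out) to 0.06 in WAT on day 8 and -0.011 to 0.008 in BAT on day 4. Of all genes called for EGCG, those higher made up 64.1%, 70.3%, 57.6% and 64% in WAT on days 4 and 8 and BAT on days 4 and 8, against 44.7%, 51.2%, 51.3% and 51.8% under median-ratio scaling. The same scaling moved that share from 41.5% to 53.3% over time in BAT controls, from 74.3% to 51.5% and from 67.6% to 56.9% between cell sources in day 4 control and EGCG cells, from 42.7% to 61.5% for the effect in BAT minus WAT on day 4 and from 62.8% to 49.3% for that on day 8 minus day 4 in BAT.

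Replicate numbers did not pair the samples, since deviations of same-numbered libraries correlated from -0.08 to 0.08 over 28 pairs of groups. With the number as a replicate block, 9 and 8 members were called for EGCG in WAT on days 4 and 8 and 9 and 9 in BAT, as without it, and 6 instead of 5 for the effect in BAT minus WAT on day 8.

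With 2 libraries per group in the fit, small differences are not resolved, and the depth of replicate 3 gave Slc7a11 as few as 41 reads.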
